A study of Mus musculus with 8 samples.

Results

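The genes Ly6c1, Ly6c2, Ly6a and Ly6e were examined in the peripheral blood of restrained mice and of control mice. They were found by their exact gene symbols and make up 4 of the 21878 symbols counted. All 4 had at least 10 counts in at least 4 samples, as did 11718 genes in all. The mice were wild-type (WT) female C57BL/6 animals at 6-8 weeks of age. The stress group (n = 4) spent 6 hours in a ventilated tube, and the control group (n = 4) was made up of littermates left in their cage. Both groups went without food and water during that time, so the comparison is of restraint on top of fasting. RNA came from all the cells of the blood, and in such bulk RNA fewer cells of a type and less RNA per cell cannot be told apart.

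Ly6 proteins are small, cysteine-rich proteins that are held on the outer cell surface by a glycosylphosphatidylinositol (GPI) anchor. The Ly6C antigen, encoded by Ly6c1 and Ly6c2, is used to divide mouse blood monocytes into a Ly6C-high classical class and a Ly6C-low non-classical class. It is also found on neutrophils, which the paper gated as Ly6C-positive, on some T cells and on plasmacytoid dendritic cells. Ly6a encodes Sca-1, an antigen of haematopoietic stem cells and of activated lymphocytes, and Ly6e encodes a broadly expressed member that is known for its part in viral entry. Several members of the family are induced by interferons.

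The 4 genes lie together on chromosome 15 (GENCODE M21, GRCm38). Ly6e occupies chr15:74955051-74959905 on the plus strand. Ly6a at chr15:74994877-74998031, Ly6c1 at chr15:75044018-75048830 and Ly6c2 at chr15:75108158-75111970 are on the minus strand. The stretch from the start of Ly6e to the end of Ly6c2 covers 156920 bases, and 59327 bases separate Ly6c1 from Ly6c2. No annotated gene overlaps any of the 4. The coding sequences of Ly6c1 and Ly6c2 are shown because the reads of these genes had to be told apart by few differences. Each has 393 bases in 3 exons and they differ at 9 positions. The first 270 bases are given, with capitals at the 7 differing positions that fall in them.
Ly6c1 coding sequence, chr15:75045405-75048511, minus strand: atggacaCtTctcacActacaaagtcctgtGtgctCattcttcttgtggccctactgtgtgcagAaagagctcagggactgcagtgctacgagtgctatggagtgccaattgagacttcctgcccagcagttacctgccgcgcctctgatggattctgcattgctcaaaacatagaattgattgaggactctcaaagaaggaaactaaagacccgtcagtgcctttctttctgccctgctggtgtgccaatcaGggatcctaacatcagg
Ly6c2 coding sequence, chr15:75108546-75111667, minus strand: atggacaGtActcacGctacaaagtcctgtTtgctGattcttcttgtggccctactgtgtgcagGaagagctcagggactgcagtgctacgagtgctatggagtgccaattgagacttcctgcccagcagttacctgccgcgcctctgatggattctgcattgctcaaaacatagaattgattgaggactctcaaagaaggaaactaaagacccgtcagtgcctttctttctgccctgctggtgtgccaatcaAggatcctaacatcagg

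These coding sequences were identical at 384 of 393 positions (97.7%). Ly6a was more distant, at 81.8% identity with Ly6c1 and 81.6% with Ly6c2, and Ly6e shared 48.1% to 50.9% with the other members. Over the whole first annotated transcript, 31.7% of the 50-base windows of Ly6c1 and 32.6% of those of Ly6c2 occurred in the other Ly6c gene. With 100-base windows the shares were 15.3% and 15.8%, and with 150-base windows they were 5.61% and 5.79%. How reads that match both genes were counted is not given in the sources used here, so the split between Ly6c1 and Ly6c2 is uncertain and their summed counts are reported as well. No 100-base window of Ly6a or Ly6e occurred in another gene. Of the 50-base windows, 8.05% of those of Ly6a did. With any other gene counted, the 50-base shares were 36.7% for Ly6c1 and 33.0% for Ly6c2. The summed counts thus leave reads shared with further genes unsettled.

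Near their starts Ly6c1 and Ly6c2 are less alike than in their coding parts. The 250 bases before the annotated start in the RefSeq promoter table (GRCm38.p6) held both genes, with 57.7% identity in a global alignment (164 identical positions, 52 mismatches and 68 gap positions). Part of each window lies past the gene's outermost RefSeq start. Gap positions count against identity, so the 57.7% depends in part on where the windows begin. The bases ahead of each gene's outermost RefSeq start are shown because they are less alike than the coding parts. The capitals mark the letters GAGGAAGT, a binding motif of the myeloid factor PU.1.
Ly6c1 promoter, chr15:75048921-75049087, minus strand: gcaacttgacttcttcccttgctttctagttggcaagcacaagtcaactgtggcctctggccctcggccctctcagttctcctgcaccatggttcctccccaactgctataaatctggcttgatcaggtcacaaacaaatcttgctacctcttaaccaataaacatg
Ly6c2 promoter, chr15:75112067-75112221, minus strand: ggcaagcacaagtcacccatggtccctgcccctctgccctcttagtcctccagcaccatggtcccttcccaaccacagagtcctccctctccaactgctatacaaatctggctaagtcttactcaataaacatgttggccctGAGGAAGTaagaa

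On both strands of the 250-base windows, GAGGAAGT occurred once upstream of Ly6c2 and not upstream of Ly6c1. It also occurred once upstream of the neighbouring family gene Ly6g, and 2.44% of 32851 promoters held it. The other motifs were searched and had no match upstream of Ly6c1, Ly6c2 or Ly6g. The interferon-stimulated response element was present in 2.98% of promoters, the STAT motif TTCNNNGAA in 7.02% and the palindromic glucocorticoid response element in 0.0304%. These are matches of letters and not measured binding sites.

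The total count per sample was 31471145 to 39014775 for control mice and 25978683 to 29655725 for stressed mice. Haemoglobin genes took 51.9% to 63.8% of the control counts and 61.2% to 75.5% of the stress counts. Levels are given as CPM, counts relative to the effective library size after TMM, a normalization that takes most genes as unchanged, with factors of 1.01 to 1.77 in the control group and 0.507 to 1.10 in the stress group. Genes were compared by the quasi-likelihood test of edgeR and passed at a Benjamini-Hochberg adjusted p below 0.05 over all 11718 genes. Of these, 1222 (10.4%) were higher and 432 (3.69%) were lower in the stress group. Scaled by library totals alone, the same test gave 52 higher and 5811 lower, and scaled by totals outside haemoglobin it gave 551 higher and 3945 lower. Higher genes were thus 73.9% of those that passed with TMM, 0.887% with totals alone and 12.3% with totals outside haemoglobin.

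With TMM scaling, Ly6c2 was the member that passed as higher in the stress group. It did not pass with library totals alone (log2 fold change -0.01) or with totals outside haemoglobin (0.40). Its counts were 421, 645, 1486 and 370 in control samples 1 to 4 and 753, 374, 323 and 830 in stress samples 1 to 4. As TMM-scaled CPM these were 11.4, 12.5, 21.5 and 11.7 in the control group and 33.6, 17.4, 24.5 and 26.6 in the stress group. Control sample 3 lay apart from the other control samples and above stress sample 2, so the groups overlapped. The mean was 14.3 ± 4.83 CPM (SD, n = 4) in the control group and 25.5 ± 6.68 CPM (SD, n = 4) in the stress group. The log2 fold change was 0.83 (SE 0.23, 95% interval 0.33 to 1.33, edgeR adjusted p = 0.0341). A larger log2 fold change was seen in 8.35% of all tested genes, whose median was -0.03. Without control sample 1, 2 or 4, or stress sample 1, 3 or 4, Ly6c2 no longer passed, with adjusted p of 0.0744, 0.0846, 0.0524, 0.0685, 0.127 and 0.0623 in that order. Its log2 fold change stayed between 0.70 and 1.10 with any 1 sample left out, and it was 1.10 without control sample 3.

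Ly6c1, the near-identical neighbour, was lower in level and did not pass the test. Its counts were 208, 221, 307 and 140 in the control samples and 119, 137, 102 and 142 in the stress samples. The TMM-scaled CPM were 5.65, 4.28, 4.44 and 4.42 in the control group and 5.31, 6.36, 7.74 and 4.55 in the stress group. Stress sample 3 was the highest, and stress samples 1 and 4 lay within the control range. The means were 4.70 ± 0.642 and 5.99 ± 1.38 CPM (SD, n = 4 each), with a log2 fold change of 0.33 (SE 0.18, 95% interval -0.05 to 0.72, edgeR adjusted p = 0.224).

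Adding the Ly6c1 and Ly6c2 counts takes the split of reads between these genes out of the comparison. Their sum was 19.0 ± 4.65 CPM in the control group and 31.5 ± 6.22 CPM in the stress group (SD, n = 4 each). It passed the test at a log2 fold change of 0.73 (SE 0.17, 95% interval 0.35 to 1.11, edgeR adjusted p = 0.0168). The summed value lost its call without control sample 2 (adjusted p = 0.0607) and without stress sample 3 (adjusted p = 0.0565). It also did not pass with library totals alone (-0.11, adjusted p = 0.794) or with totals outside haemoglobin (0.30, adjusted p = 0.256). The control range was 16.1 to 25.9 CPM and the stress range 23.7 to 38.9 CPM, so the groups again overlapped.

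Ly6a did not pass the test. Its counts were 572, 869, 1669 and 505 in the control samples and 409, 356, 259 and 441 in the stress samples. These came to 15.5, 16.8, 24.1 and 15.9 CPM in the control group and 18.2, 16.5, 19.7 and 14.1 CPM in the stress group. Control sample 3 was again the highest, and the remaining values of both groups were interleaved. The log2 fold change was -0.09 (SE 0.15, 95% interval -0.42 to 0.24, edgeR adjusted p = 0.729), and without control sample 3 it was 0.08.

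Ly6e was the most abundant member and did not pass either. Its counts were 10820, 16423, 23571 and 9322 in the control samples and 7639, 6360, 5209 and 9233 in the stress samples. The CPM were 294, 318, 341 and 294 in the control group and 341, 295, 395 and 296 in the stress group. Stress sample 3 was the highest of all and the other values shared a narrow range. The means were 312 ± 22.4 and 332 ± 47.5 CPM (SD, n = 4 each), with a log2 fold change of 0.09 (SE 0.15, 95% interval -0.24 to 0.42, edgeR adjusted p = 0.729). The intervals of Ly6a and Ly6e both held values of either sign, so the direction of change was not resolved for these genes.

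In all, 1 of the 4 members passed as higher, against 10.4% of all tested genes, and 0 passed as lower, against 3.69%. No member was lower at an unadjusted p under 0.05 with edgeR, and DESeq2 and limma-voom called 0 lower as well. The study used stricter thresholds, a log2 fold change beyond 1 in size together with adjusted p under 0.01. By these, 0 members passed, against 1.69% of genes higher and 0.0171% lower. All 4 members had overlapping groups. Among all tested genes, every stress sample was above every control sample in 11.1% and below in 9.88%, 21.0% in all.

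**Figure D1:**
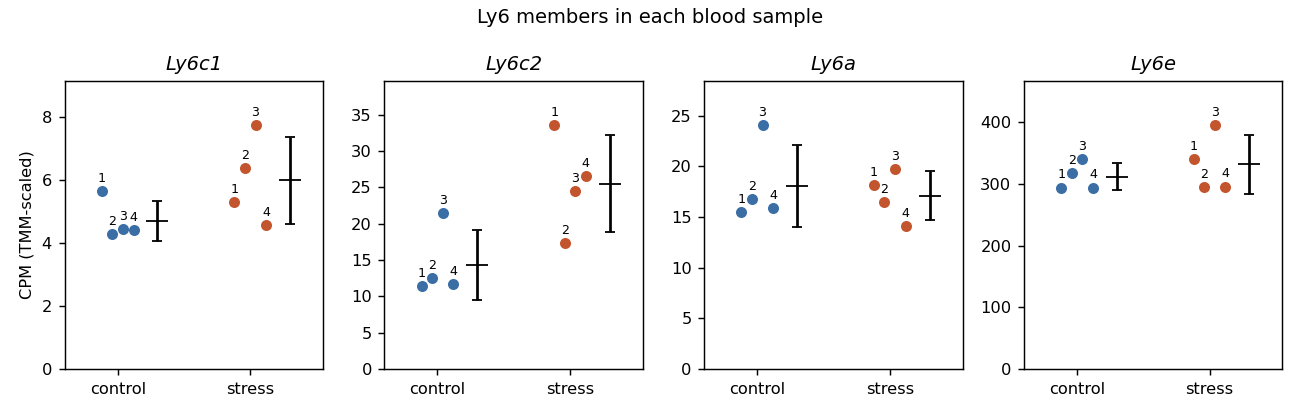
TMM-scaled CPM of Ly6c1, Ly6c2, Ly6a and Ly6e in each control and stress sample, with points numbered by sample and bars for the mean ± SD (n = 4 each). Ly6c2 averaged 14.3 CPM in the control group and 25.5 CPM in the stress group, and control sample 3 reached 21.5 CPM.

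Per kilobase of the first annotated transcript, the order of the levels was the same at the ends of the list in both groups and changed in the middle. In the control group Ly6e stood at 137 ± 9.81 CPM per kilobase, Ly6a at 22.1 ± 4.94, Ly6c2 at 17.4 ± 5.87 and Ly6c1 at 5.56 ± 0.760 (SD, n = 4 each). In the stress group Ly6e stood at 145 ± 20.8, Ly6c2 at 31.0 ± 8.13, Ly6a at 20.9 ± 2.91 and Ly6c1 at 7.09 ± 1.64 CPM per kilobase. Ly6a and Ly6c2 were the neighbours whose ranges overlapped, in both groups. Among all tested genes ranked by mean level, without regard to length, Ly6e was number 110, Ly6c2 number 3173, Ly6a number 3335 and Ly6c1 number 6960.

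The ratio of a pair of members within a sample does not depend on how libraries are scaled. Ly6a counts exceeded Ly6c2 counts in every control sample, with ratios of 1.36, 1.35, 1.12 and 1.36, and fell short of them in every stress sample, with ratios of 0.543, 0.952, 0.802 and 0.532. The groups did not overlap. On the log2 scale the Ly6a over Ly6c2 ratio differed by -0.92 (SE 0.22) between the stress and control groups, a two-sided exact permutation p of 0.0286, which is the smallest that 4 samples against 4 allow. Adjusted over the 6 pairs of members, this p was 0.171.

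Ly6e over Ly6c2 was 25.7, 25.4, 15.9 and 25.2 in the control samples and 10.1, 17.0, 16.1 and 11.1 in the stress samples. Control sample 3 fell among the stress samples. The log2 difference was -0.77 (SE 0.25, exact permutation p = 0.0857, adjusted p = 0.229). Ly6c2 over Ly6c1 differed by 0.52 (SE 0.40, adjusted p = 0.24 by the exact permutation test), Ly6a over Ly6c1 by -0.40 (SE 0.23) and Ly6e over Ly6c1 by -0.25 (SE 0.18). Ly6e over Ly6a, the pair without a Ly6c gene, differed by 0.15 (SE 0.11). No pair passed after adjustment, but with 4 samples against 4 a single pair could not have passed whatever its values, so the adjusted test does not bear on whether Ly6c2 changed differently from the other members.

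**Figure D2:**
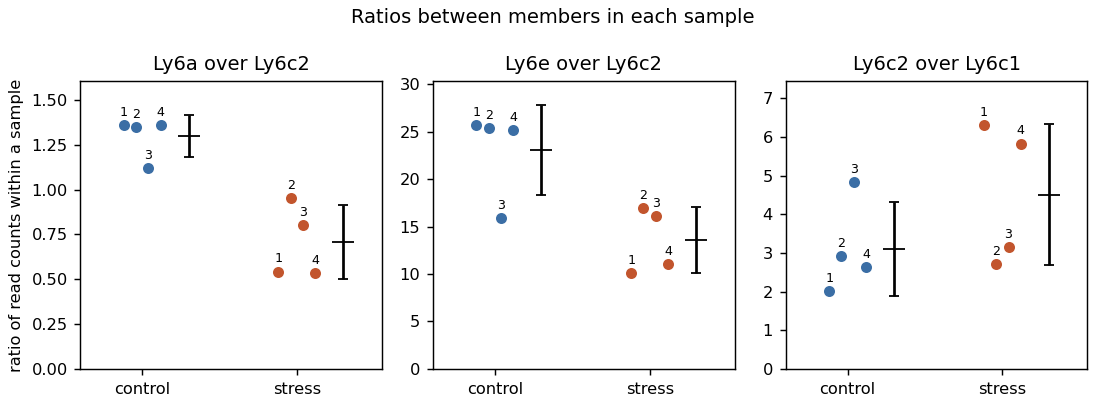
Ratios of counts within each sample for Ly6a over Ly6c2, Ly6e over Ly6c2 and Ly6c2 over Ly6c1, on linear axes from 0, with numbered points for samples and bars for the mean ± SD (n = 4 each). The Ly6a over Ly6c2 ratio was above 1 in all 4 control samples and below 1 in all 4 stress samples.

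Ly6c2 supplied most of the Ly6c1 and Ly6c2 counts in every sample. Its share was 66.9%, 74.5%, 82.9% and 72.5% in the control samples and 86.4%, 73.2%, 76.0% and 85.4% in the stress samples. The lowest share, in control sample 1, had an exact binomial 95% interval of 63.1% to 70.6%, and the highest, in stress sample 1, one of 83.9% to 88.6%, which cover counting error only. The groups overlapped, with means of 74.2% ± 6.61 and 80.2% ± 6.62 (SD, n = 4 each, two-sided exact permutation p = 0.2).

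The direction of Ly6c1, Ly6c2 and Ly6e depended on the scaling, while Ly6a was below 0 under each scaling and differed in size and call. With library totals alone the log2 fold change was -0.01 for Ly6c2, -0.50 for Ly6c1, -0.97 for Ly6a and -0.76 for Ly6e, and the latter pair passed as lower (edgeR adjusted p = 0.0206 and 0.0183). That scaling moved the median of all tested genes to -0.82. With totals outside haemoglobin the median was -0.43, and Ly6c2 was at 0.40, Ly6c1 at -0.08, Ly6a at -0.53 (passed as lower, edgeR adjusted p = 0.0392) and Ly6e at -0.34. Ly6c2 did not pass with either of these totals (edgeR adjusted p = 0.986 and 0.203). Relative to the median gene, Ly6c2 was 0.86 higher with TMM, 0.81 with totals alone and 0.83 with totals outside haemoglobin. The corresponding values were 0.36, 0.32 and 0.35 for Ly6c1, -0.06, -0.14 and -0.10 for Ly6a, and 0.11, 0.06 and 0.09 for Ly6e. A change of scaling moves all genes by about the same amount. The likeness of these values between scalings follows from that and adds no support.

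**Figure D3:**
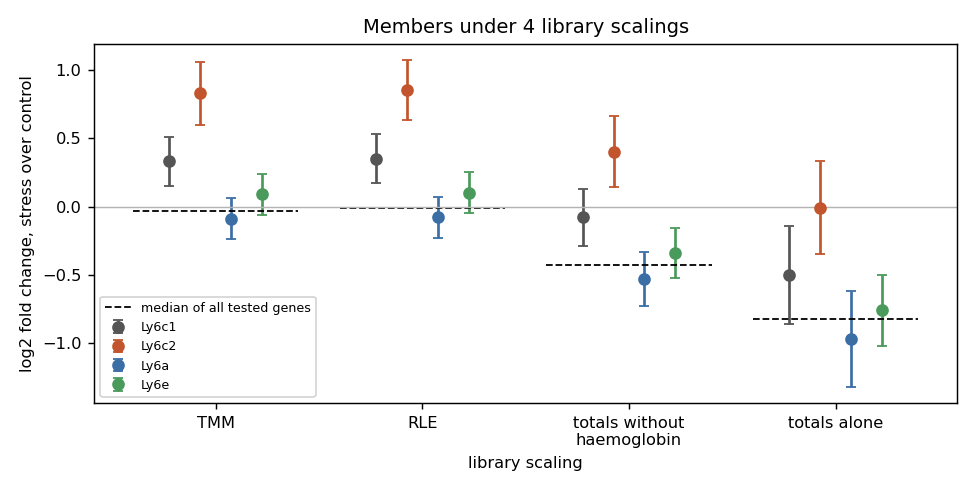
Log2 fold change (stress minus control) of each member with its SE under 4 scalings of the libraries, with a dashed line at the median of all tested genes. Ly6c2 went from 0.83 with TMM to -0.01 with library totals alone, while that median went from -0.03 to -0.82.

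The members belong to the larger Ly6/uPAR family, whose typical proteins share a three-finger fold. Of 45 family names, 40 were in the count table, 20 could be tested and 10 had no count in any sample. Of those tested, 8 passed as higher and 0 as lower, against 10.4% and 3.69% of all tested genes. The median was 0.61 on the log2 scale against -0.03 for all tested genes. Ly6g, the neutrophil antigen gene at chr15:75155240-75159126, close to Ly6c2, had few counts, 2 to 18 in the control samples and 12 to 40 in the stress samples. It went from 0.165 ± 0.0856 to 1.19 ± 0.439 CPM (SD, n = 4 each), a log2 fold change of 2.77 (SE 0.49, edgeR adjusted p = 0.00303). Cd59b, an inhibitor of the complement membrane attack complex, rose by 1.51 (SE 0.26), and Cd177, a neutrophil surface protein, by 1.46 (SE 0.30). Ly6g6f, a platelet surface protein gene that has the Ly6 name but not this fold and is counted in the list, rose by 1.03 (SE 0.20). Ly6g6c rose by 0.99 (SE 0.21), and Ly6a2, annotated as the transcribed pseudogene I830127L07Rik beside Ly6c2, by 1.97 (SE 0.41). Their edgeR adjusted p lay between 0.00263 and 0.00936. Ly6d, a B lineage antigen, had a value of -0.10 (SE 0.16) and Ly6i, between Ly6e and Ly6a, one of 0.37 (SE 0.40). These did not pass.

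**Figure D4:**
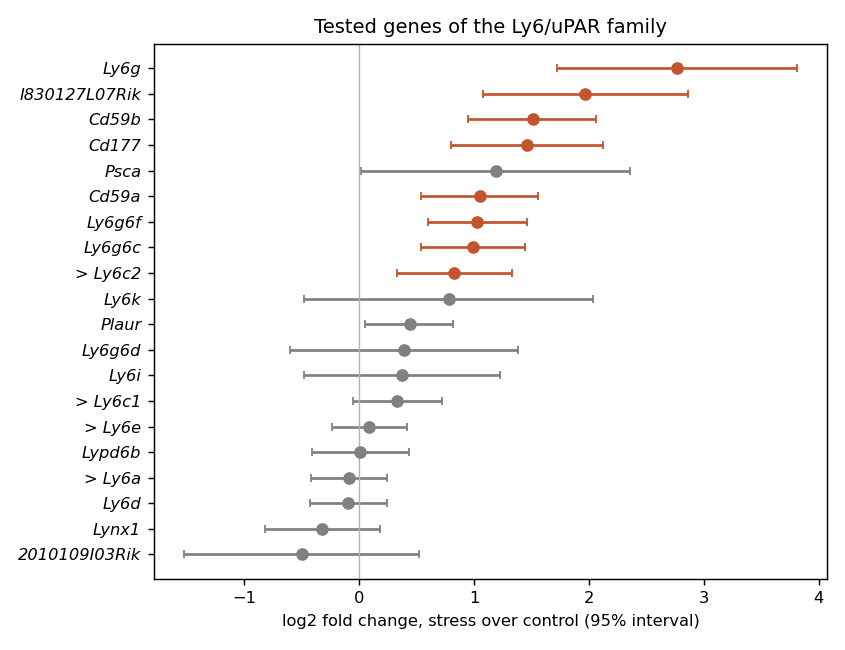
Log2 fold change (stress minus control) of the 20 tested genes of the Ly6/uPAR family list with 95% intervals, in orange where the adjusted p was below 0.05 and grey otherwise. Members are marked with an arrowhead, and Ly6c2 at 0.83 is the only 1 of the 4 in orange.

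Interferon-stimulated genes are listed because interferons induce Ly6 genes. Of 22 tested, 4 passed as higher and 0 as lower, against 10.4% and 3.69% of all tested genes. The median log2 fold change of the 22 was 0.33. Isg15, a ubiquitin-like modifier, rose by 1.14 (edgeR adjusted p = 0.0498) and Rtp4 by 0.71 (adjusted p = 0.0252), while Ifit1 had a value of 0.64 and did not pass (adjusted p = 0.0651). Among 15 genes of the interferon receptors and their signalling, 1 passed as higher, against 10.4% of all tested genes. It was the feedback inhibitor Socs3 at 0.50 (SE 0.14). The receptor chains Ifnar1 and Ifnar2 had values of -0.24 and 0.30 and did not pass. Of 27 genes for the synthesis and attachment of the GPI anchor, 0 passed as higher and 2 as lower, against 10.4% and 3.69% of all tested genes. The 2 lower ones were Pigo at -0.55 (SE 0.12) and Pgap1 at -0.58 (SE 0.15).

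Markers of cell types that carry Ly6 antigens also differed between the groups. Of 12 classical monocyte markers, 7 passed as higher and 0 as lower, against 10.4% and 3.69% of all tested genes. The median of the 12 was 1.29 on the log2 scale. Ccr2, the chemokine receptor by which these cells leave the bone marrow, rose by 1.70 (SE 0.34) and F13a1 by 1.27 (SE 0.14). Their summed level was 586 to 713 CPM in the control group and 917 to 1456 CPM in the stress group. Non-classical markers gave 0 higher and 2 lower of 10, and their sums overlapped at 308 to 403 and 297 to 391 CPM. Ace was the larger of these changes, at -0.94 (SE 0.28, edgeR adjusted p = 0.0453). Neutrophil markers gave 8 higher of 11 tested, with sums of 193 to 382 and 601 to 887 CPM.

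T cell markers gave 0 of 12 in either direction with edgeR (0 at an unadjusted p under 0.05), with sums of 689 to 734 CPM in the control group and 626 to 751 CPM in the stress group. B cell markers gave 6 lower of 10, with sums of 1061 to 1308 and 722 to 950 CPM, NK cell markers 1 lower of 10, with sums of 119 to 185 and 105 to 197 CPM, and plasmacytoid dendritic cell markers 0 of 5 (1 at an unadjusted p under 0.05). The plasmacytoid dendritic cell sums did not overlap, at 85.0 to 93.6 CPM in the control samples and 68.8 to 81.1 CPM in the stress samples. Most of each sum came from Irf8 (means of 54.7 CPM in the control group and 44.2 CPM in the stress group) and Tcf4 (18.1 and 15.2 CPM). Siglech had means of only 0.952 and 0.502 CPM with overlapping groups, and Bst2 had a log2 fold change of 0.30. The sums therefore do not show a change in these cells. Platelet markers gave 10 higher of 10, with sums of 1491 to 2178 and 3303 to 3968 CPM. No marker in these lists was at 0 in all samples, and the shares over all tested genes were 10.4% higher and 3.69% lower. Between the groups, with TMM scaling, Ly6c2 was thus higher along with classical monocyte, neutrophil and platelet markers. Their part in the Ly6c2 level was not tested. Within the control group this did not hold for each sample. Control sample 3 had the highest Ly6c2 level of that group (21.5 CPM). Its neutrophil sum (193 CPM) and platelet sum (1491 CPM) were the lowest of all samples, and its classical monocyte sum was 654 CPM. By flow cytometry after 6 hours of restraint, the paper counted fewer monocytes, gated as Ly6C-high, and fewer T, B and NK cells in blood. It counted more neutrophils. Those are cell numbers, while the marker levels here are relative amounts of RNA, so higher monocyte markers do not mean more monocytes.

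**Figure D5:**
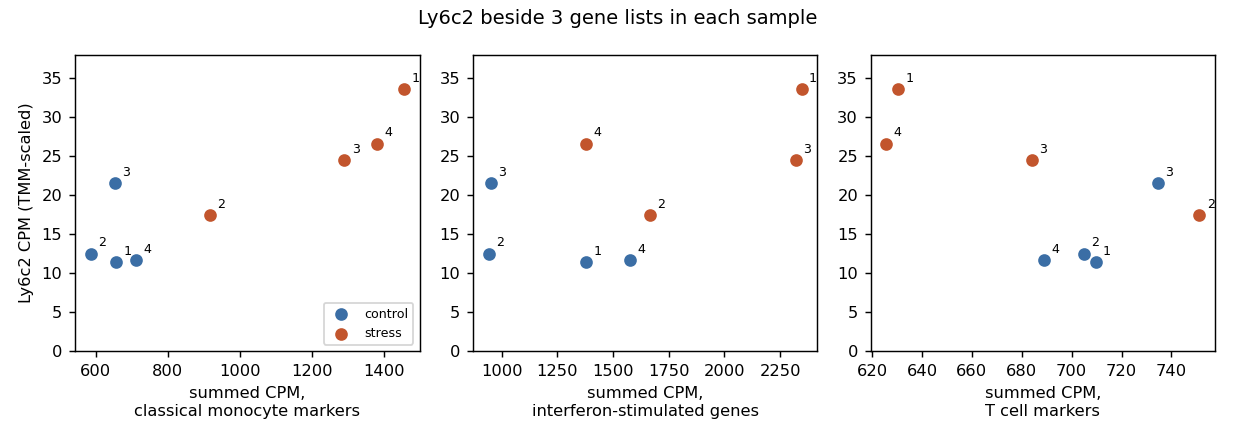
TMM-scaled CPM of Ly6c2 against the summed CPM of classical monocyte markers, interferon-stimulated genes and T cell markers, with 1 numbered point per sample. The classical monocyte sums were 586 to 713 CPM in the control samples and 917 to 1456 CPM in the stress samples, and the T cell sums of both groups overlapped.

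Across the 8 samples, the genes most like each member in log2 CPM were different for the different members. Among 10309 genes, Gm2a, a lysosomal lipid-binding protein gene, was most like Ly6c2 (Pearson r = 0.954, and 0.90 for deviations from the group means). It was followed by Ms4a6d (0.952 and 0.88), a myeloid membrane protein gene, and by Atp6v1b2 (0.932 and 0.83), a subunit of the vacuolar proton pump. For Ly6c1 they were Tsg101, Ntan1 and Paip1 (r from 0.964 to 0.99). For Ly6a they were Eif3d, Daxx and Usp5 (0.913 to 0.945), and for Ly6e the proteasome subunit genes Psma1 and Psmc4 and the respiratory chain gene Ndufb5 (0.967 to 0.979). These are the highest of many correlations over 8 points that share library depth and scaling, and are given as a description. Between members, r was 0.25 for Ly6c1 and Ly6c2, with -0.37 within groups, and 0.71 for Ly6a and Ly6e, with 0.79 within groups.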

How the data were processed

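Whole blood RNA of 8 mice was sequenced from Illumina TruSeq libraries. The authors deposited raw counts per gene symbol without normalization. The submitters' processing notes name HISAT2, featureCounts and mm10, while the annotation, strand setting and treatment of multiply mapped reads are not given in the sources used here. A gene was tested if 4 or more samples had 10 or more counts of it, in R 4.3.3 with edgeR 4.0.16 (TMM, robust quasi-likelihood test, Benjamini-Hochberg adjustment over 11718 genes), after a check on simulated data. Alternatives were DESeq2 1.42.0, limma-voom (limma 3.58.1), other scalings and filters, the replicate number as a block, and the omission of single samples. Ratios and shares were compared by exact permutation over 70 assignments, with 0.5 added to counts for ratios. Members and gene lists were chosen with earlier results of these data known. Besides the members, named genes were Ly6g, up to 5 family genes per direction with the smallest p that passed, the first 2 tested genes of each other list with up to 2 per direction that passed, and the 3 genes most correlated with each member (mean of at least 1 CPM). Ly6d and Ly6i were added for their place in the family after their values were seen. Not every gene the rule allows is named. No columns lacked a sample. Nothing in the labels ties equal replicate numbers to a shared litter or day. Sequences came from GENCODE M21 and RefSeq.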

Additional observations from a re-analysis of the deposited data

Results flagged for a closer look

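In 7 of 24 sets of 4 samples, 1 sample lay further from the rest than Dixon's 95% limit allows. Chance gives about 1 in 20 for a single set. The 24 sets reuse the same counts as levels, a sum, ratios and a share, so the 7 flags are not independent and no excess was tested. Control sample 3 accounted for 6 of them. Its Ly6c2 level was 21.5 CPM against 11.4 to 12.5 in the other control samples, its Ly6a level 24.1 CPM against 15.5 to 16.8, and its summed Ly6c1 and Ly6c2 level 25.9 CPM against 16.1 to 17.1. Its ratio of Ly6a over Ly6c2 was 1.12 against 1.35 to 1.36, that of Ly6e over Ly6c2 was 15.9 against 25.2 to 25.7, and that of Ly6e over Ly6a was 14.1 against 18.4 to 18.9. This library had the largest total count, the highest TMM factor (1.77) and the lowest haemoglobin share (51.9%), and their part in these values was not tested. The remaining value was Ly6c1 in control sample 1, at 5.65 CPM against 4.28 to 4.44.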

How the results depend on the processing

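With the study's thresholds Ly6c2 (0.83) and the Ly6c sum (0.73) did not pass, 0 members were higher, and 198 genes were higher and 2 lower. With library totals alone the log2 fold changes were -0.50 for Ly6c1, -0.01 for Ly6c2, -0.97 for Ly6a, -0.76 for Ly6e and -0.11 for the sum, with 0 members higher and 2 lower, and 52 genes higher and 5811 lower. With totals outside haemoglobin they were -0.08, 0.40, -0.53, -0.34 and 0.30, with 0 members higher and 1 lower, and 551 genes higher and 3945 lower. Testing every gene with a count gave 0.84 for Ly6c2 (edgeR adjusted p = 0.0933) and 0 members higher. The cause of these changes was not tested.

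With 1 sample left out, the log2 fold change was 0.22 to 0.45 for Ly6c1, 0.70 to 1.10 for Ly6c2, -0.16 to 0.08 for Ly6a (0.08 without control sample 3), 0.01 to 0.17 for Ly6e and 0.64 to 0.92 for the sum, with 0 to 1 members higher. The genes that passed were 617 to 1425 higher and 81 to 726 lower. No ratio passed after adjustment and no share passed with a sample left out. The unadjusted exact p of Ly6a over Ly6c2 was 0.0286 without any 1 stress sample and 0.0571 without any 1 control sample, and that of Ly6e over Ly6c2 was 0.0286 without control sample 3. DESeq2 (adjusted p = 0.00639) and limma-voom (adjusted p = 0.0252) also called Ly6c2.

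With the replicate block, 919 genes were higher and 240 lower, and Ly6c2 was at 0.85 (edgeR adjusted p = 0.0448). The deviations of same-numbered samples correlated at 0.06, 0, -0.04 and -0.16. No pairing by number was seen, but so few correlations cannot settle whether same-numbered samples shared a litter or day.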
